A study of Mus musculus with 12 samples.

Results

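BATF peaks were examined at 43 genes of T cell receptor signalling in mouse Th9 and Th17 cells. The genes were taken as a named list covering the receptor complex and its coreceptor, the kinases, adaptors and enzymes that carry the signal, and the proteins that restrain it. All 43 had a gene model among the 21000 protein-coding genes with a curated RefSeq transcript on GRCm38, the assembly that is also called mm10. A gene was counted as bound when a peak summit, the base of highest signal in a peak, lay in its body or within 50 kb of either end, and such a summit is called in reach below. Of the 43 genes, 18 (41.9%) had a summit in reach in at least 1 library, against 29.2% of the 21000, and 25 had none.

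Both cultures began with naive CD4+ CD62L+ T cells from spleen and lymph nodes of C57BL6/J mice, activated with antibodies to CD3 and CD28. Th9 cells received IL-4, IL-2, TGF-β1 and an antibody to IFNγ. Th17 cells received IL-6, TGF-β1, IL-23, IL-1β and antibodies to IFNγ, IL-4 and IL-2. Chromatin was collected on day 5 and immunoprecipitated with an antibody to BATF, which gave 2 BATF libraries for each of the cell types, and every one of them has its own input and IgG controls. The groups differed in the cytokines and blocking antibodies given. Nothing in the labels says that the 2 libraries of a cell type came from separate mice or cultures, so p-values measure only the spread between these libraries. The peak lists hold no expression values, so the identity of the cells could not be checked against marker genes.

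When the T cell receptor meets its ligand, the Src family kinases Lck and Fyn phosphorylate the CD3 and ζ chains, which recruit the kinase Zap70. Zap70 phosphorylates the adaptors Lat and SLP-76, and on these a complex of adaptors, exchange factors and phospholipase Cγ1 assembles. The signal runs on to calcium and NFAT, to Ras and AP-1, and to NF-κB. Phosphatases, Csk, ubiquitin ligases and adaptors such as SLAP limit it. BATF is an AP-1 family protein of the basic leucine zipper (bZIP) type that is made after T cell activation, pairs with Jun proteins, and binds AP-1 sites alone or composite sites together with IRF4.

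Among the lists called against the combined controls, those of Th9 cells held 1709 (library 1) and 241 peaks (library 2), and those of Th17 cells 4111 (library 3) and 199 peaks (library 4). Each peak carries a fold enrichment, the ratio of summit signal to background nearby, and a −log10 q, where q is the false discovery rate. No read counts are given, which leaves the depth unknown, and the number of peaks limits the precision. A gene without a peak was below the threshold of the list and was not shown to be unbound. Libraries 1 and 3 held most of the peaks of their cell type and stood apart from libraries 2 and 4 in this respect.

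Peaks from the 4 libraries that shared at least 1 bp were merged into regions, of which 32 were in reach of the 43 genes. An AP-1 site, TGAGTCA or its reverse complement TGACTCA, lay within 100 bp of the summit in 8 of them. Those printed here, 7 in number, are shown because AP-1 sites are the sequences to which BATF binds, and they were chosen after the values had been seen. Each line gives 20 bases of the GRCm38 plus strand to either side of the site, 5′ to 3′. Capitals mark the AP-1 site and, at *Fyn* and *Sla*, the longer bZIP:IRF composite, here TGANTCA followed by 4 bases and GAAA.

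*Cd4*, upstream, chr6:124907926-124907972: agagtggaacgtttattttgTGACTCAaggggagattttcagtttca

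*Fyn*, intron, chr10:39479536-39479582: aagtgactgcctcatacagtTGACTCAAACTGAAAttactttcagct

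*Lcp2*, downstream, chr11:34112174-34112220: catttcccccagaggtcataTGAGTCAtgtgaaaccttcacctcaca

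*Cblb*, intron, chr16:52095860-52095906: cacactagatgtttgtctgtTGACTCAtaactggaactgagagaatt

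*Ubash3a*, upstream, chr17:31162812-31162858: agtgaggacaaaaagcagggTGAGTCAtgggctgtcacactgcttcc

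*Grap2*, downstream, chr15:80654073-80654119: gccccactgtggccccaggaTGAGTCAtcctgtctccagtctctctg

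*Sla*, upstream, chr15:66862012-66862058: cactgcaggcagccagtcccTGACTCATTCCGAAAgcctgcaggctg

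In 7 of the 8 regions, including the one near *Malt1* that is not printed, the site lay inside the called interval. The exception was *Ubash3a*, where it lay just past the end of the peak. From the summit to the middle of the site, the offset on the plus strand was −4 bp at *Sla* and 19 bp at *Fyn*, but −78 bp at *Grap2*, 86 bp at *Ubash3a* and 89 bp at *Lcp2*, so the last 3 lay near the edge of the window searched.

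In Th9 cells 11 of the 43 genes (25.6%, exact 95% binomial interval 13.5 to 41.2%) had a summit in reach, against 10.6% of all protein-coding genes. In Th17 cells the number was 15 of 43 (34.9%, 21.0 to 50.9%), against 22.5% of all genes. A summit in both cell types was found for 8 of 43 (18.6%, 8.39 to 33.4%), where 3.88% of all genes had one, and 18 of 43 (41.9%, 27.0 to 57.9%) had one in any library, where 29.2% did. The background lay below the interval of the members for Th9 cells and for both cell types, and inside it for Th17 cells and for any library. The intervals cover counting error only, and genes are not independent replicates.

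The counts per library were uneven. A summit was in reach of 11 members in Th9 library 1 (9.43% of all genes), of 3 in Th9 library 2 (1.74%), of 15 in Th17 library 3 (22.2%) and of 0 in Th17 library 4 (1.23%). The 0 of 43 in library 4 allows a share of up to 6.98% at the 3 counts taken as the limit, or 8.22% by the exact interval. The 3 members of library 2 were *Txk*, *Vav3* and *Skap1*, and each of them also had a summit in reach in library 1. Without library 1 the Th9 count was 3 (1.74% of all genes) and the count in both cell types 3 (0.971%). Without library 3 the Th17 count was 0 (1.23% of all genes) and the count in both 0 (0.6%). The Th17 count therefore rested on library 3. Without library 2 the Th9 count was still 11 (9.43% of all genes), so it rested on library 1.

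**Figure D1:**
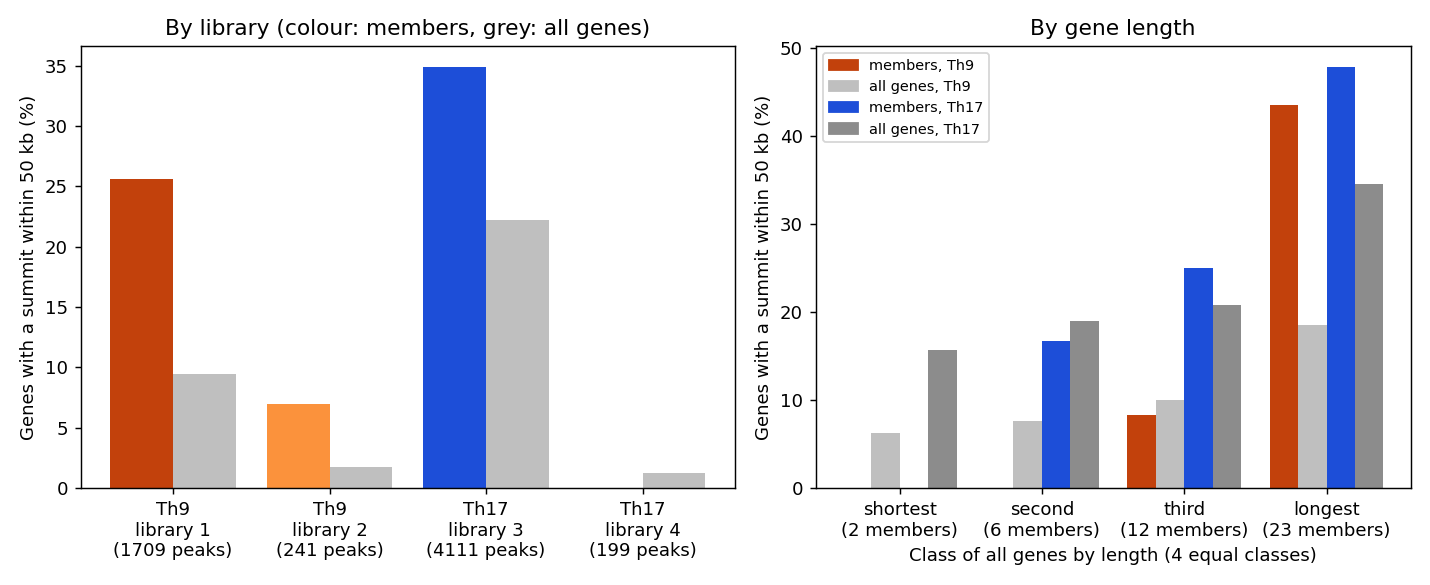
Left, percent of the 43 genes (coloured bars) and of all 21000 protein-coding genes (grey bars) with a BATF summit in the gene body or within 50 kb, by library. Right, the same by class of all genes by length (4 equal classes), for either library of a cell type; members exceeded all genes in the longest class, with 43.5% against 18.5% in Th9 cells and 47.8% against 34.5% in Th17 cells, while the shorter classes held few members.

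The mean number of members with a summit in reach was 7.0 ± 5.66 (SD, n = 2 libraries) in Th9 cells and 7.5 ± 10.6 (SD, n = 2) in Th17 cells. The difference of 0.5 genes was smaller than the spread between libraries (exact two-sided permutation test, p = 1). As a share of the peaks of a library, the peaks in reach of a member were 0.878% and 1.24% in Th9 libraries 1 and 2, and 0.438% and 0% in Th17 libraries 3 and 4. Both Th9 libraries lay above both Th17 libraries, but with peaks assigned by nearest start site the difference was −0.1495 percentage points (exact permutation test, p = 1) and that order was lost. With 2 libraries against 2 the smallest p that the test can give is 0.333, and the difference of −0.842 percentage points (Th17 minus Th9) had that value (exact two-sided permutation test, p = 0.333), so neither difference could pass 0.05.

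Gene length and the number of peaks moved with these shares. The median length of the members was 45354 bp, more than the third quartile of 43566 bp over all genes, and with all genes split into 4 equal classes by length, 23 of the 43 fell in the longest. The 18 genes with a summit in reach had a median length of 68529 bp and the 25 without had 26986 bp. In the longest class 10 of 23 members (43.5%) had a Th9 summit in reach, against 18.5% of the genes of that class, and 11 of 23 (47.8%) had a Th17 summit, against 34.5%. In the third class the counts were 1 of 12 (8.33%, against 9.96%) for Th9 cells and 3 of 12 (25%, against 20.8%) for Th17 cells. Of the 8 members in the shorter classes, 0 had a Th9 summit in reach, against 6.27% and 7.62% of genes in the shortest and the second class, and 1 had a Th17 summit, against 15.7% and 19.0%. The excess of members over all genes in Th9 cells was thus seen in the longest class and not in the third. The longest class has no upper limit and lengths were not matched within it, so a difference in length can remain there.

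By crowding, 34 members had 3 or fewer other protein-coding genes within 50 kb, and 10 (29.4%) of these had a Th9 summit in reach against 12.1% of genes of that class. In Th17 cells the figures were 14 (41.2%) against 23.6%. Of the 9 members in more crowded places, 1 (11.1%) had a summit in reach in either cell type taken alone, against 7.61% of genes for Th9 and 20.3% for Th17. With the 199 strongest peaks of each library, 5 of 43 members (11.6%) against 2.38% of all genes remained in Th9 cells and 1 of 43 (2.33%) against 2.32% in Th17 cells. With the gene body alone, 8 members (18.6%) against 3.63% had a Th9 summit and 6 (14%) against 7.19% a Th17 summit. These settings were not split by length, and the median length was 45354 bp for members and 16690 bp for all genes.

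No member had a summit within 1 kb of an annotated start site, where 0.848% of all genes did. The nearest was at *Ptprc*, 1526 bp upstream. Of the 32 regions, 17 had the summit in the body of a member, each of them in an intron, and 3 lay within 10 kb of a start site of a member, while 9 lay more than 50 kb from every start site of a member in reach. For 24 of the 32 the nearest protein-coding start site was that of a member. The summit lay in the body of any protein-coding gene in 22 of the 32 (68.75%) and in 2513 of the 5841 other regions (43.02%). Member regions were chosen for a summit in or within 50 kb of a member, and other regions were not chosen by distance to a gene. That rule itself favours summits in gene bodies and members as the nearest start site. These counts are therefore not read as traits of the members.

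**Figure D2:**
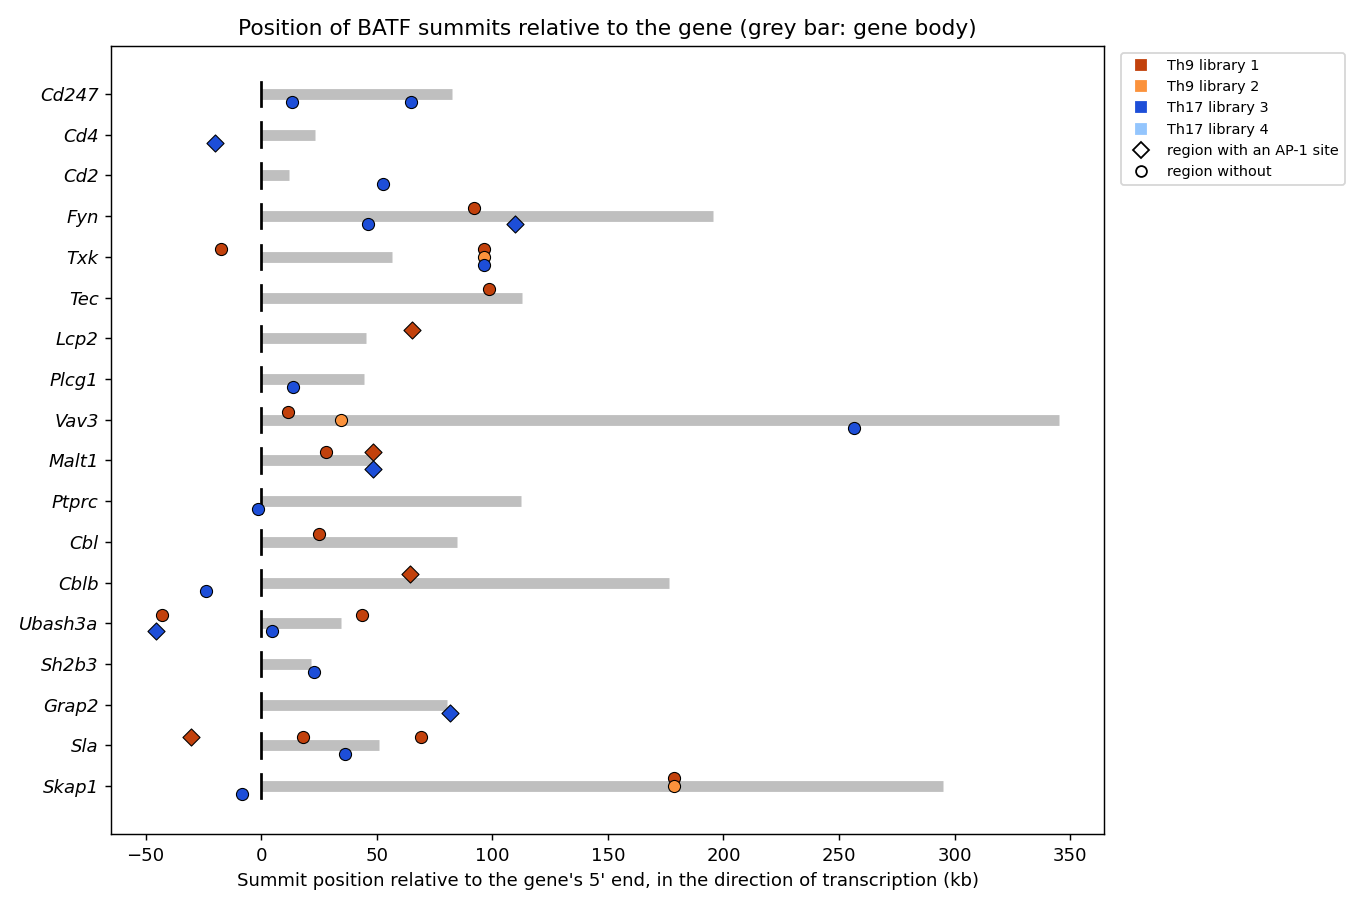
Position of each summit along its gene, in kb from the outermost 5′ end in the direction of transcription, for the 18 genes with a summit in reach; grey bars are gene bodies, the black tick is the 5′ end, colours are libraries and diamonds are regions with an AP-1 site. Summits were spread through introns and flanks, and the one nearest to a 5′ end belonged to *Ptprc*. Distances in the text are to the nearest annotated start site, which for *Vav3*, *Txk* and a few other genes is an internal one.

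The genes are described below in 9 groups by role, of 2 to 10 genes each. These counts are to be read against the 29.2% of all genes with a summit in reach in any library, or 44.3% in the longest class, and the groups were not tested. Among the receptor chains and coreceptors, 2 of 5 genes had a summit in reach, both in Th17 library 3 alone, where 22.2% of all genes had one. *Cd247* encodes the ζ chain, which carries most of the phosphorylation motifs of the receptor. Its first region, at chr1:165801851-165802036 in an intron, had a fold enrichment of 5.94 at a −log10 q of 5.15. A second, at chr1:165853374-165853613 in an intron 64810 bp from the start site, had an enrichment of 4.61 at a −log10 q of 2.89. Neither held an AP-1 site, but the first held the looser form TGANTCA, shown in capitals because it was the only such match at the genes of the receptor chains.

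*Cd247*, intron, chr1:165801924-165801970: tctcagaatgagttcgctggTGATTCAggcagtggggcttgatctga

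*Cd4* encodes the coreceptor that binds MHC class II. Its peak, at chr6:124907862-124908029, lay 19794 bp upstream, inside *Lag3*, whose start site was the nearest. The fold enrichment was 5.08 and the −log10 q 3.32, and the site was not called against IgG alone. *Cd3e*, *Cd3d* and *Cd3g*, the neighbouring genes of the CD3 chains on chromosome 9, had no summit in reach in any library.

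Of the 4 other surface receptors, *Cd2*, an adhesion receptor of T cells, had a peak in Th17 library 3 at chr3:101235282-101235485, 40496 bp past its end. The fold enrichment was 7.90 and the −log10 q 8.14. *Cd5*, *Cd6* and *Thy1* had none. *Cd2* had no other protein-coding gene within 50 kb, and its summit was one of those near the limit of reach.

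Of the 6 kinases, *Fyn*, *Txk* and *Tec* had summits in reach and *Lck*, *Zap70* and *Prkcq* had none. *Fyn* had 3 regions in its introns. In Th17 library 3 the region at chr10:39479435-39479662, 109741 bp from the start site, had a fold enrichment of 9.19 at a −log10 q of 11.9, and it holds the composite site printed above. A second Th17 region, at chr10:39415778-39416042, had an enrichment of 5.08 at a −log10 q of 3.32. The only Th9 peak, in library 1 at chr10:39461843-39462027, had an enrichment of 4.47 at a −log10 q of 2.62. The strongest *Fyn* region was a Th17 region, and no *Fyn* region was called in both cell types.

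*Txk*, a Tec family kinase of T cells, had the region called in the most libraries. It lay at chr5:72655990-72656343, 39762 bp past the end of *Txk*, in *Nipal1*, whose start site was the nearest. The fold enrichment was 8.44 in Th9 library 1, 9.40 in Th9 library 2 and 6.29 in Th17 library 3, with −log10 q of 10.3, 11.1 and 5.38. The summits of the 3 libraries lay within a few bases of each other. None of the 7 motifs searched was within 100 bp of the summit, and the whole window is printed because the region recurred without one.

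*Txk*, downstream, chr5:72656116-72656316: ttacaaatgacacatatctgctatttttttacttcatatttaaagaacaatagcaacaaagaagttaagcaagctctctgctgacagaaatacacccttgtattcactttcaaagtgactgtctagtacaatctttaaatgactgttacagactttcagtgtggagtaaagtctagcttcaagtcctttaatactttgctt

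*Txk* and *Tec*, a kinase of the same family, are neighbours and shared another Th9 region. It lay at chr5:72769927-72770158 in an intron of *Tec*, 17269 bp upstream of *Txk*, which had the nearest start site. In Th9 library 1 it had a fold enrichment of 5.54 at a −log10 q of 3.82. It was the only region in reach of *Tec* and the only one in reach of 2 members.

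**Figure D3:**
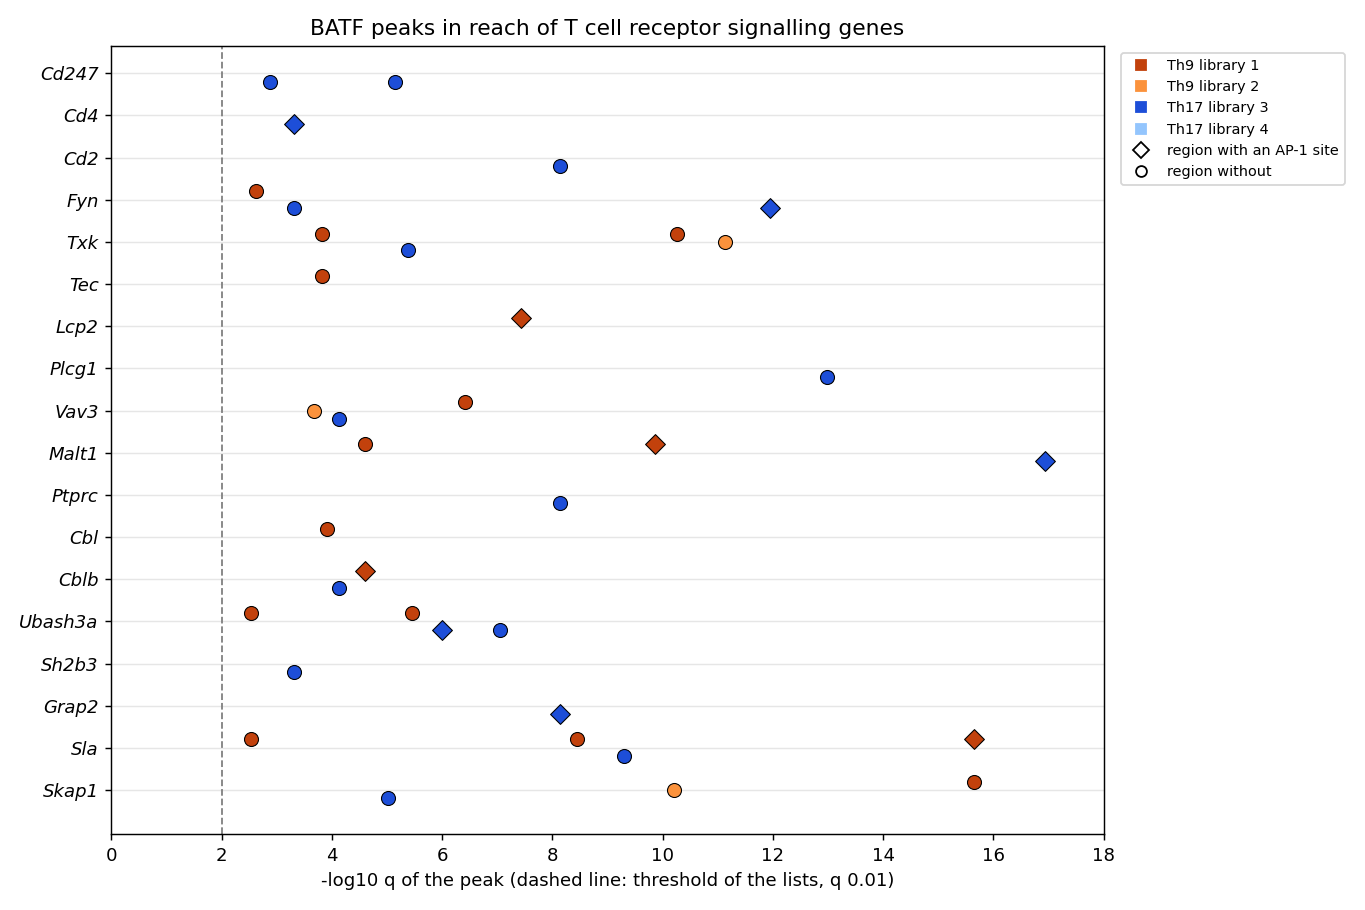
−log10 q (horizontal axis) of every BATF peak in reach of the 18 genes with one; each point is a peak in 1 library, colours are libraries, diamonds are regions with an AP-1 site, and the shared *Txk* and *Tec* peak is drawn at both genes. The values ran from 2.53 to 16.9, the highest at *Malt1*, *Sla* and *Skap1*, and Th17 library 4 has no point.

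Of the 10 adaptors, scaffolds and enzymes of the LAT complex, 4 had a summit in reach, against 29.2% of all genes. *Plcg1* encodes phospholipase Cγ1, which makes diacylglycerol and inositol trisphosphate. It had 1 peak, in Th17 library 3 at chr2:160744830-160745025, in an intron 13602 bp from the start site. The fold enrichment was 10.2 and the −log10 q 13.0, and no AP-1 site lay near the summit, although 2 ETS cores (AGGAAG) did. *Lcp2* encodes the adaptor SLP-76. Its peak, in Th9 library 1 at chr11:34112013-34112239, lay 19827 bp past its end, with a fold enrichment of 7.51 at a −log10 q of 7.43.

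*Vav3*, a guanine nucleotide exchange factor, had 3 intronic regions in 3 libraries, and none of them overlapped. The peak at chr3:109352113-109352323 had a fold enrichment of 6.97 at a −log10 q of 6.42 in Th9 library 1. The peak at chr3:109375207-109375404 had an enrichment of 5.87 at a −log10 q of 3.68 in Th9 library 2, and the peak at chr3:109597101-109597273 had an enrichment of 5.65 at a −log10 q of 4.12 in Th17 library 3. *Vav3* is the longest of the 43 genes, at 345012 bp, and its 3 libraries shared no site.

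*Grap2* encodes Gads, the adaptor that joins SLP-76 to Lat. Its peak, in Th17 library 3 at chr15:80654056-80654240, lay 1320 bp past the gene end, with a fold enrichment of 7.90 at a −log10 q of 8.14, the same pair of values as at *Cd2*. The nearest start site was that of *Fam83f*. *Lat*, *Vav1*, *Nck1*, *Rasgrp1*, *Themis* and *Rhoh* had no summit in reach.

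In the NF-κB branch, *Malt1*, the paracaspase that works with Bcl10, had the strongest peak of all members, and *Bcl10* had none. The *Malt1* region began and ended at chr18:65479197-65479475, and its summit lay 476 bp past the gene end. The fold enrichment was 11.8 in Th17 library 3 and 7.38 in Th9 library 1, with −log10 q of 16.9 and 9.87. It held an AP-1 site, at −11 bp from the stronger summit, that of the Th17 library. This region and that at *Txk* were the only ones with overlapping Th9 and Th17 peaks. An intronic region at chr18:65458722-65458885 was called in Th9 library 1 alone, with an enrichment of 6.04 at a −log10 q of 4.60.

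*Skap1*, an adaptor of the integrin arm that works with the product of *Fyb*, had 1 of the 2 member regions called in both Th9 libraries, the other being that of *Txk*. It lay at chr11:96643175-96643451 in an intron, with a fold enrichment of 11.1 in library 1 and 9.07 in library 2, and −log10 q of 15.6 and 10.2. Neither Th17 library had a peak there. The summits were 178702 and 178789 bp from the start site of *Skap1*, and the nearest start site was that of *Snx11*. The window around the library 1 summit holds no AP-1 site, and capitals mark an ETS core on the minus strand.

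*Skap1*, intron, chr11:96643193-96643393: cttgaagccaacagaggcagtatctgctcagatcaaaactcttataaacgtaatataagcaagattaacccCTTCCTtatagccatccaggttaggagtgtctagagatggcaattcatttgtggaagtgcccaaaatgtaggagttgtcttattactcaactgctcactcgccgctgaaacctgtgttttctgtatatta

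A Th17 peak at chr11:96456021-96456186, 8430 bp upstream of *Skap1*, had a fold enrichment of 6.21 at a −log10 q of 5.02 in library 3. *Skap1* thus had summits in reach in both cell types at different sites. *Fyb* had none.

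Of the 5 phosphatases and proteins of the Csk brake, *Ptprc* alone had a summit in reach. *Ptprc* encodes the phosphatase CD45, which keeps the Src family kinases ready to act. The peak, in Th17 library 3 at chr1:138176670-138176924, had a fold enrichment of 7.90 at a −log10 q of 8.14, and was called against each control alone as well. *Ptpn22*, *Ptpn6*, *Csk* and *Pag1* had no summit in reach.

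Of the 7 ubiquitin ligases, Sts proteins and negative adaptors, 5 had a summit in reach, with 12 of the 32 regions. *Cbl*, *Cblb* and *Sla* among them belong to the longest class of genes, in which 44.3% of all genes had one. *Sla*, which encodes SLAP, an adaptor that lowers receptor levels, had 4 regions. The strongest, in Th9 library 1 at chr15:66861975-66862163, 30210 bp upstream, had a fold enrichment of 11.1 at a −log10 q of 15.6, and holds the second composite site at its summit. Its rank by q was 23 in that library. The nearest start site was that of *Ccn4*.

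The other *Sla* regions had no AP-1 site. A Th9 peak at chr15:66762546-66762757 in *Tg*, 18130 bp past the end of *Sla*, had a fold enrichment of 7.96 at a −log10 q of 8.45. A Th17 peak at chr15:66795327-66795534 in an intron had an enrichment of 8.47 at a −log10 q of 9.30. A weak Th9 peak at chr15:66813682-66813905, also in an intron, had an enrichment of 4.02 at a −log10 q of 2.53. *Sla* lies inside *Tg*, the thyroglobulin gene, so the intronic summits lie in both genes.

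*Ubash3a* encodes an Sts protein that dampens Zap70 signalling, and it too had 4 regions, 2 in each cell type. The Th17 peaks were at chr17:31162595-31162796, with a fold enrichment of 6.78 at a −log10 q of 6.001, and at chr17:31212538-31212823 in an intron, with an enrichment of 6.85 at a −log10 q of 7.04. The Th9 peaks were at chr17:31165254-31165656, with an enrichment of 6.53 at a −log10 q of 5.46, and at chr17:31251700-31251868, with an enrichment of 4.53 at a −log10 q of 2.53. The upstream pair lay 45317 bp (Th17) and 42762 bp (Th9) from *Ubash3a*, near *Tff1*, the gene with the nearest start site, and did not overlap. The last peak was 77.5% repeat-masked sequence. The upstream Th9 peak held the same variant of the AP-1 site as the *Cd247* intron.

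*Ubash3a*, upstream, chr17:31165303-31165349: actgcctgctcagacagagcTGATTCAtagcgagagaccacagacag

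The remaining peaks of this group were of modest strength. *Cblb*, a ubiquitin ligase that raises the threshold for activation, had a Th9 intronic peak at chr16:52095736-52095919 with a fold enrichment of 5.81 at a −log10 q of 4.60. A Th17 peak at chr16:52007499-52007681, 23960 bp upstream, had an enrichment of 5.65 at a −log10 q of 4.12. *Cbl*, the related ligase, had a Th9 intronic peak at chr9:44209080-44209297 with an enrichment of 5.23 at a −log10 q of 3.91. *Sh2b3*, which encodes the adaptor Lnk, had a Th17 peak at chr5:121813757-121813965, 1524 bp past its end in *Atxn2*, with an enrichment of 5.08 at a −log10 q of 3.32. *Ubash3b* and *Sla2*, the closest relatives of *Ubash3a* and *Sla* on the list, had no summit in reach, and neither diacylglycerol kinase gene, *Dgka* or *Dgkz*, had one.

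Of the 18 genes, 8 had summits in both cell types, 7 in Th17 cells only and 3 in Th9 cells only. The last were *Tec*, *Lcp2* and *Cbl*. By number of libraries, 3 genes had summits in 3 libraries, 5 in 2 and 10 in 1. Over all genes, 10.6% had a Th9 summit in reach, 22.5% a Th17 summit and 3.88% both. Genes called in a single cell type, or by number of libraries, were not counted over all genes. Those member counts are therefore not read as traits of the members. At the level of regions, 14 of the 32 were called in Th9 cells only, 16 in Th17 cells only and 2 in both. Of the 5841 other regions, 1654 were called in Th9 cells only, 3979 in Th17 cells only and 208 in both, so few were shared there too. In 2 or more libraries 3 member regions (9.38%) were called, against 4.71% of the other regions. The strongest peak of a member region had a median fold enrichment of 6.37 and a median −log10 q of 5.31, and in the other regions these medians were 5.64 and 4.12. Of the 8 genes with summits in both cell types, 2 had overlapping peaks, *Txk* and *Malt1*, and the rest had them at different sites.

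The strict AP-1 site was within 100 bp of the summit in 8 of 32 member regions (25%, 11.5 to 43.4%) and in 16.9% of the other regions. Windows of the same length centred 2 kb to either side held it in 4 of 64 (6.25%) for members and in 3.41% for the other regions, and 5.20% of RefSeq promoter sequences, which are somewhat longer, held it. The share was 4 of 16 in regions with a Th9 peak and 5 of 18 in those with a Th17 peak. The looser site TGANTCA was in 31.2% of member regions and 20.6% of others. The interval of the members included the share of the other regions for both forms. Within 50 bp of the summit the strict site was in 4 of 32 member regions (12.5%) and 11.98% of others. With the summit in the body of a member it was in 2 of 17 (11.8%). Of other regions with the summit in the body of any protein-coding gene, 19.1% held it, but these sets are not alike. By that wider rule there were 22 member regions, among them those in *Lag3* and *Tff1*, which held the site. No direction in gene bodies is drawn from these values.

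**Figure D4:**
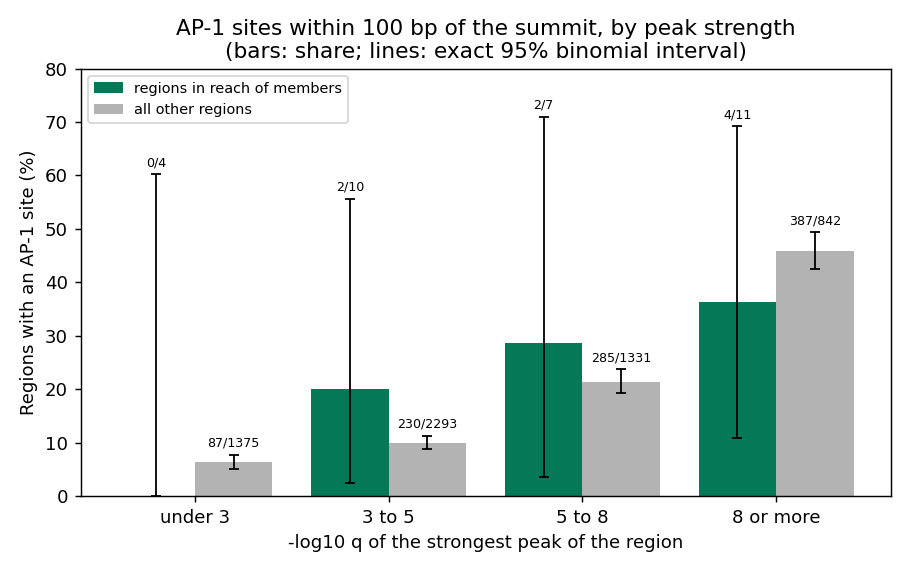
Percent of regions with an AP-1 site within 100 bp of the summit, by the −log10 q of the strongest peak of the region, for member regions (green) and all other regions (grey), with counts and exact 95% binomial intervals. The share of the other regions rose from 6.33% to 46.0% with peak strength, and each member bar had an interval that held the share of the other regions.

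Strength and AP-1 sites went together outside the members. In the other regions the share was 6.33%, 10.03%, 21.4% and 46.0% for a −log10 q under 3, from 3 to 5, from 5 to 8, and of 8 or more. In member regions the counts in those classes were 0 of 4, 2 of 10, 2 of 7 and 4 of 11. The 4 strong member regions with a site were those of *Fyn*, *Malt1*, *Grap2* and *Sla*, and strong regions without one included those of *Plcg1*, *Skap1* and *Txk*. The higher share of AP-1 sites over all member regions was not seen in the strongest class, where 36.4% of member regions and 46.0% of others had one.

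Other motifs were counted in the same windows on both strands. The bZIP:IRF composite, TGANTCA with GAAA directly before it or 4 bases after it, was in 2 of 32 member regions (6.25%, 0.766 to 20.8%) and 1.64% of others. The RUNX core TGTGGT was in 21.9% and 17.6%, and the ETS core AGGAAG in 31.2% and 23.2%. The STAT site, TTC and GAA with 3 bases between, was in 1 of 32 (3.12%), at *Fyn*, and 8.90% of others. The CRE site TGACGTCA was in 0 of 32 and 0.223% of others. Each member interval held the share of the other regions, so no difference was detectable with 32 regions.

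Some of the members' peaks depended on the control. Of the 36 peaks, 26 were also called against each control alone, 6 were not called against IgG alone and 4 not against input alone. The same counts were not made over all peaks of the lists, so they are not read as a trait of the members. The *Txk* peak of Th17 library 3 was among the 6, so against IgG alone the *Txk* region was a Th9 region only. The others of the 6 were at *Cd4*, *Sh2b3*, upstream of *Skap1* (Th17) and the weaker Th9 peaks of *Fyn* and *Sla*. Those not called against input alone were the weaker Th17 peak of *Fyn*, the *Vav3* peak of library 2, the intronic *Malt1* peak and that of *Cbl*.

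Few summits lay close to the 50 kb limit. Just inside it were the summits at *Cd2* (40.5 kb from the gene body) and upstream of *Ubash3a* (42.8 and 45.3 kb). Just outside it were a Th9 library 1 peak 54.1 kb from *Pag1*, with a fold enrichment of 5.03 at a −log10 q of 3.15, and a Th17 library 3 peak 58.2 kb from *Malt1*. *Ubash3a* and *Malt1* had other summits nearer, so of these genes the limit bears on *Cd2* and *Pag1*. The *Txk* region called in 3 libraries lay almost as far out as that of *Cd2*, 39762 bp past the gene end. It held the only *Txk* peaks of Th9 library 2 and Th17 library 3, so the limit bears on these calls too. With the limit at 100 kb the counts were 13 members (30.2%) against 16.9% of all genes in Th9 cells, and 19 (44.2%) against 35.0% in Th17 cells.

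A further 67 genes of T cell receptor signalling, covering coreceptors, calcineurin, Ras, PI3 kinase and NF-κB components, were counted in the same way. A Th9 summit was in reach of 12 (17.9%, 9.61 to 29.2%) and a Th17 summit of 29 (43.3%, 31.2 to 56.0%). Both were in reach of 6 (8.96%, 3.36 to 18.5%). Over all genes these shares were 10.6%, 22.5% and 3.88%. The background thus lay below the interval for Th17 cells and inside it for Th9 cells and for both, unlike at the 43 genes. In any library 35 (52.2%) had a summit in reach, against 29.2% of all genes, and 32 had none. The 67 genes were not split by length. The Th9 share was lower and the Th17 share higher than those of the 43 genes, each within the interval of the other list. Genes with a region called in 2 or more libraries included *Tagap*, *Itpr1* and *Ppp3ca*. The region of *Tagap*, a GTPase-activating protein of T cells, lay downstream with an AP-1 site and was called in 3 libraries. Its fold enrichment was 10.9 in Th9 library 1, 7.47 in Th9 library 2 and 11.9 in Th17 library 3. The strongest region of the 67 by q in these libraries was downstream of *Itpr1*, an inositol trisphosphate receptor, with a fold enrichment of 16.4 in Th17 library 3 and 7.31 in Th9 library 1. None of the 67 had a summit within 1 kb of a start site.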

How the data were processed

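The authors trimmed paired-end reads with Trim Galore 0.4.3, used Bowtie2 to align them to mm10, and ran MACS2 2.1.0 at a q of 0.01 with duplicates kept; versions are from the submitters' processing notes. They deposited 12 lists, 3 per BATF library, which differ in the control (input, IgG, or the pair); only a list's name tells which. For each peak the authors gave the fold enrichment (a ratio), the −log10 q-value and positions. The 4 lists against both controls were used here.

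The 43 genes and the other lists were chosen with earlier results of these data known. Genes were protein-coding with curated transcripts (RefSeq annotation release 108.20200622). The text gives in full members with a region in 2 or more libraries, the 8 with the highest −log10 q per cell type, and any with a summit within 1 kb of the start site, and names those without a peak; the other peaks were added afterwards. Length and crowding classes stood in for matched genes. Libraries were compared by exact two-sided permutation tests. The scripts were tested on simulated data: 200 of 200 placed summits and 300 of 300 planted AP-1 sites were counted correctly. Alternatives were other distances, single controls, a minimum −log10 q of 5, equal numbers of peaks, nearest start sites, both libraries, other motif windows and each library left out. Python 3.11.15, numpy 2.4.6, scipy 1.17.1, pysam 0.24.0 and matplotlib 3.10.9 were used. Results for an item among the other pathway genes are not reported here.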

Additional observations from a re-analysis of the deposited data

Results flagged for a closer look

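A peak in a list that the comparisons did not use was found at 1 member without a peak in the main lists. *Lck*, which encodes the Src family kinase that starts receptor signalling, had a peak in Th9 library 1 called against input alone, at chr4:129619051-129619255, −45488 bp from its start site, on the upstream side. Its fold enrichment was 5.01 and its −log10 q 3.58. It was not called against IgG alone or against both controls, and its part in the result was not tested.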

How the results depend on the processing

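Under gene body alone, single controls, a minimum −log10 q of 5, equal numbers of peaks, both libraries of a cell type and other distances, the following values moved. Shares of all genes are in parentheses. The Th9 count of 11 members (10.6%) was 7 at a −log10 q of 5 (3.94%), 5 with equal numbers of peaks (2.38%) and 3 when both libraries were required (0.586%). With each library left out it was 3 to 11 (1.74 to 10.6%). The Th17 count of 15 (22.5%) was 6 in gene bodies (7.19%), 1 with equal numbers (2.32%) and 0 when both were required (0.890%). With each library left out it was 0 to 15 (1.23 to 22.5%). The count in both cell types, 8 (3.88%), was 3 in gene bodies (1.3%), 5 against IgG alone (3.13%), 5 at a −log10 q of 5 (1.70%), 1 with equal numbers (0.610%) and 0 when both were required (0.186%). With each library left out it was 0 to 8 (0.6 to 3.77%).

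The difference in members per library (Th17 minus Th9, 0.5) was −2 in gene bodies, 0 within 10 kb, −1 against IgG alone and −3 with equal numbers of peaks, and −7 to 8 with each library left out, so it had no stable direction. The difference in the percent of peaks was negative in every alternative run, from −1.76 to −0.1495 percentage points, and at the latter, by nearest start site, the order of the libraries was lost. The percent of member regions with an AP-1 site ranged from 11.8 in gene bodies and 12.5 within 50 bp to 33.3. The cause of these shifts was not tested, beyond fewer peaks or a smaller area searched. No paired analysis was possible because no BATF library of one cell type has the number of one in the other. Unknown depth limits every statement on a missing peak.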
